A study of Homo sapiens with 12 samples.

Results

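The mRNAs of 36 lysosomal genes were followed through a ribosome density gradient in U87MG cells, an established human glioblastoma line, after 24 h in 1 of 4 conditions: hypoxia (1% oxygen) at pH 6.0, hypoxia at pH 7.4, normoxia at pH 6.0 and normoxia at pH 7.4. Fractions of the gradient were combined into 3 pools, and each of the 12 libraries is the only one of its condition and pool. The monosome pool also holds RNA free of ribosomes, the oligosome pool RNA with a few and the polysome pool RNA with many. In this layout no difference can be set against a spread between replicates, so the values below describe these libraries, without tests or p-values. The genes were taken by symbol from the names beside each assembled locus. They comprise membrane proteins, proteases, glycosidases, sulfatases, lipid-handling proteins, GRN and the transcription factor TFEB, which is neither an enzyme nor a membrane protein. Of 55598 loci, 46 named at least 1 of the 36 genes, and each gene was represented by its locus of highest mean FPKM (fragments per kilobase of transcript, scaled to library size). Of the 36 genes, 33 reached a mean FPKM of 1 over the 12 libraries and were compared among 12190 loci that did. A locus of its own was held by 22 of them, and 11 shared a locus with other names, so their values cannot be credited to the lysosomal gene alone: MCOLN1, NPC1, CTSD, HEXA, GLB1, CLN3, LIPA, IDS, NAGLU, MAN2B1 and MANBA.

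Lysosomes are acidic organelles in which soluble hydrolases break down proteins, glycans and lipids delivered by endocytosis and autophagy. Most of these enzymes are made on the endoplasmic reticulum, tagged with mannose 6-phosphate in the Golgi and sorted to the lysosome, while heavily glycosylated membrane proteins line it and carry out transport. TFEB and its relatives bind a short palindrome in the promoters of many of these genes, the CLEAR element, and enter the nucleus when nutrient signalling from the lysosome surface falls.

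The CLEAR element is shown because it is the sequence through which these genes are known to be switched on together. RefSeq promoter sequences on GRCh38.p14, from 250 bases before to 50 bases after each annotated start, were matched by symbol for 26 of the 36 genes, in 40 promoters. The others were LAMP2, PSAP, ASAH1, NAGLU, ARSA, SGSH, LGMN, CTSB, MANBA and HEXA. The searched motifs were CACGTG (the E-box), TCACGTGA, and that motif with a G before and a C after it, each contained in the next. They are palindromes, so a single search covers both strands. CACGTG was found in promoters of 9 of the 26 genes (34.6%), against 8.77% of all symbols, and in 7.26% of all 35116 single promoters. TCACGTGA was found for 5 (CLN3, CTSA, GAA, LAMP1 and MCOLN1; 19.2%), against 1.18% of all symbols, and in 0.980% of all promoters. The longest of the motifs was found for GAA and MCOLN1, against 0.421% of all symbols, and in 0.353% of all promoters. A match describes the letters and does not show a bound site. The stretches just upstream of 4 starts follow, all on the plus strand, 5′ to 3′, with TCACGTGA in capitals. They come from chr20:45891275-45891334 (CTSA), chr17:80101491-80101580 (GAA), chr13:113297179-113297238 (LAMP1) and chr19:7522564-7522623 (MCOLN1). The GENCODE v29 bounds of CTSA and GAA begin before the end of their stretches, at an earlier start than the RefSeq one.
CTSA: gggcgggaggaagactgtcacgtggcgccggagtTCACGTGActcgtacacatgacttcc
GAA: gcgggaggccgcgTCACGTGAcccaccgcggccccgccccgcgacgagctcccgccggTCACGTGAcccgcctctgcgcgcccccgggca
LAMP1: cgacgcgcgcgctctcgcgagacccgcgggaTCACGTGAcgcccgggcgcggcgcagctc
MCOLN1: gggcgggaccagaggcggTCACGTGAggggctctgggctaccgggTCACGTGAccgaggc
The motif began 26 bases before the start of CTSA, 77 and 32 bases before that of GAA, 29 bases before that of LAMP1 and 42 and 15 bases before that of MCOLN1. LAMP1 carried another match that spans its start, 2 bases before it.

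The summed FPKM of a library ran from 372400 to 2164000. Steps between low values put the depth of the libraries at 0.626 to 2.53 times that of the normoxia pH 7.4 monosome library, and FPKM carries no counts from which an interval could be given. The hypoxia pH 6.0 monosome library had the lowest depth and the highest summed FPKM. Its top 100 loci held 71.2% of its FPKM, against 66.2% to 68.7% in the other monosome libraries. The lowest such share, 30.6%, was that of the normoxia pH 6.0 polysome library. Of the glioma and neural stem markers, VIM and CD44 (in a shared locus) passed the filter, while NES, SOX2, OLIG2, GFAP and S100B did not. The summed FPKM of these 7 markers ran from 6863 to 21757 in the hypoxia pH 6.0 libraries, from 3315 to 8404 in hypoxia pH 7.4, from 2238 to 6528 in normoxia pH 6.0 and from 975 to 1448 in normoxia pH 7.4. The part of this difference in the lysosomal results was not tested. The 7 microglia and macrophage markers, a cell type rich in lysosomes, summed to 0.541 to 1.5 FPKM in hypoxia pH 6.0, 1.38 to 4.01 in hypoxia pH 7.4, 2.11 to 3.19 in normoxia pH 6.0 and 1.27 to 3.18 in normoxia pH 7.4. AIF1, TYROBP and CX3CR1 were listed at 0 in every library and CSF1R alone passed the filter. Of 11 markers of other cell types SNAP25 and EPCAM passed, CD3E was at 0, and the sum stayed between 3.73 and 11.3 FPKM in every library. In bulk lysates fewer cells of a type and less RNA per cell cannot be told apart.

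The level of a gene in a condition is given as the aggregate FPKM, the mean FPKM of the 3 pools weighted by the RNA recovered in each, which stands for steady-state mRNA. Translation efficiency (TE) is the ratio of polysome FPKM plus 1 to monosome FPKM plus 1. Changes are log2 differences between conditions from which the median over the 12190 loci was subtracted. Hypoxia and acidosis were each read in 2 pairs of conditions. A call for steady-state mRNA needed 2-fold in each pair and the same direction in each pool, and a call for TE needed 1.5-fold in each pair. The joint effect, hypoxia pH 6.0 against normoxia pH 7.4, has a single pair and the same thresholds. The 3 comparisons share libraries and are not independent of each other.

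The 33 genes were ordered over a wide range of levels. The tetraspanin CD63, a membrane protein of late endosomes and exosomes, was the most abundant, with 1235 aggregate FPKM in hypoxia pH 6.0, 1302 in hypoxia pH 7.4, 710 in normoxia pH 6.0 and 756 in normoxia pH 7.4. It was followed by the shared MAN2B1 locus, by NPC2, by CTSB and by PSAP. SGSH, IDS, TFEB, FUCA1, ARSA, ARSB and GAA were at the low end, between 1.04 and 4.34 aggregate FPKM in every condition. Summed over the 33 genes the aggregate FPKM was 4014 in hypoxia pH 6.0, 3776 in hypoxia pH 7.4, 2375 in normoxia pH 6.0 and 2250 in normoxia pH 7.4. Over the 22 genes in a locus of their own the sums were 2993 in hypoxia pH 6.0, 2965 in hypoxia pH 7.4, 1726 in normoxia pH 6.0 and 1688 in normoxia pH 7.4. Both sums differed more between hypoxia and normoxia than between pH 6.0 and pH 7.4. They are not centred on the median locus and rest largely on a few abundant loci, CD63 the most. The median aggregate FPKM of the 33 genes was 29.3 in hypoxia pH 6.0, 35.5 in hypoxia pH 7.4, 24.1 in normoxia pH 6.0 and 24.5 in normoxia pH 7.4.

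The median TE ratio of the lysosomal mRNAs was higher in both hypoxia conditions than in either normoxia condition. It was 1.73 in hypoxia pH 6.0, 1.84 in hypoxia pH 7.4, 1.03 in normoxia pH 6.0 and 1.27 in normoxia pH 7.4. The median over all loci was 1.06 in hypoxia pH 6.0, 1.09 in hypoxia pH 7.4, 1.12 in normoxia pH 6.0 and 1.16 in normoxia pH 7.4, and was lower in both hypoxia conditions. A TE ratio above 1 was found for 23 of the 33 genes in hypoxia pH 6.0, 26 in hypoxia pH 7.4, 17 in normoxia pH 6.0 and 23 in normoxia pH 7.4. Over all loci that share was 52.5% in hypoxia pH 6.0, 53.8% in hypoxia pH 7.4, 55.9% in normoxia pH 6.0 and 57.7% in normoxia pH 7.4. Among the genes CTSB had the highest TE ratio in hypoxia pH 6.0 (6.56) and in hypoxia pH 7.4 (5.67), and CTSL, another cathepsin, in normoxia pH 6.0 (3.13) and in normoxia pH 7.4 (4.47).

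**Figure D1:**
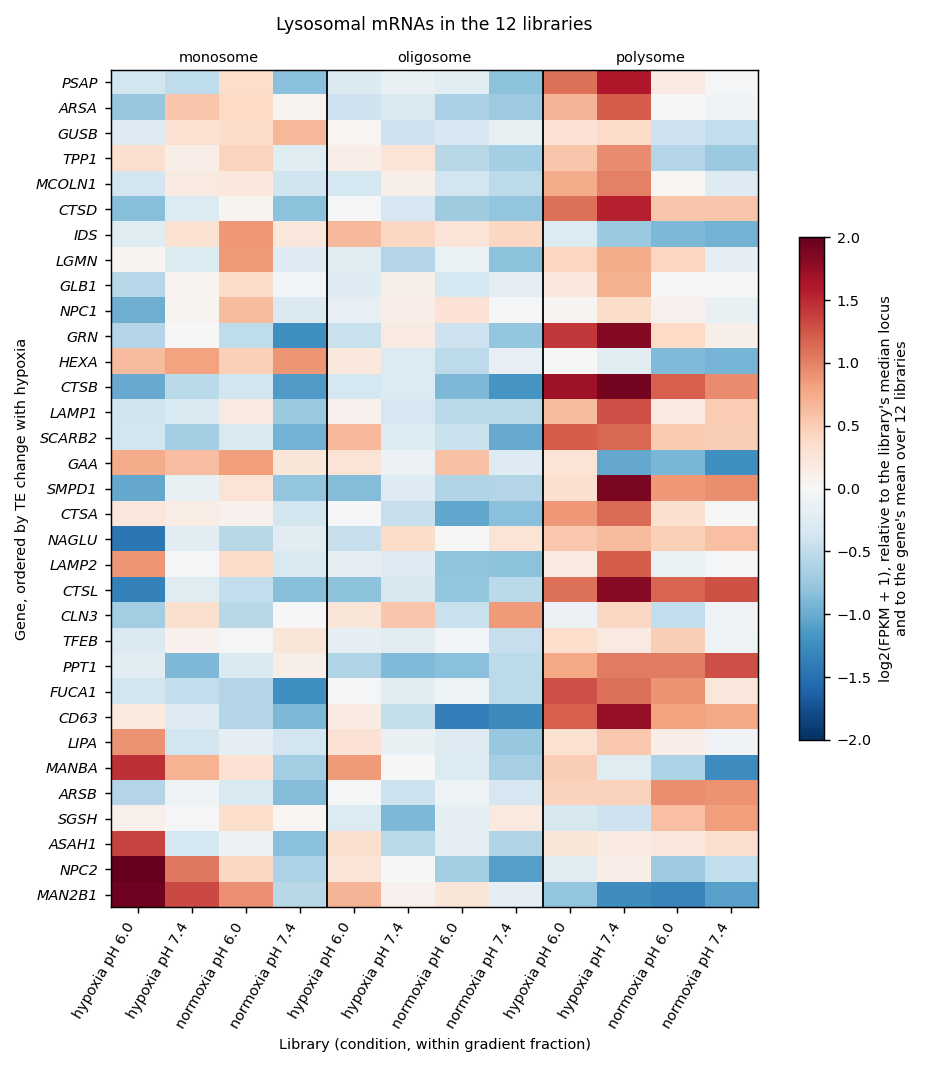
Each row is 1 of the 33 genes, ordered by its TE change with hypoxia, and each column 1 of the 12 libraries, grouped by pool and labelled by condition; colour gives log2(FPKM + 1) relative to the library's median locus and to the gene's mean over the 12 libraries. The hypoxia columns of the polysome pool are red for PSAP, GRN, CTSB and CD63, while NPC2 and MAN2B1 are darkest in the hypoxia pH 6.0 monosome column. For CTSB and CD63 the normoxia polysome columns are red too (CTSB 1.19 at pH 6.0 and 0.95 at pH 7.4, CD63 0.80 and 0.78).

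Hypoxia at both pH values went with higher steady-state levels of most lysosomal mRNAs, none of which passed 2-fold in both pairs. The called count was 0 of 33 higher, against 2.16% of all loci, and 0 lower, against 0.911%. The median change of the 33 genes was 0.48 (0.39 at pH 6.0 and 0.60 at pH 7.4), with 28 of 33 above 0, beside a median of -0.01 over all loci. Both pairs were above 0 for 23 genes, against 34.6% of all loci, and both were below 0 for 3 (PPT1, ARSB and SGSH), against 34.6%. At a 1.5-fold threshold with no rule on pools 8 genes passed higher, against 8.67% of all loci, and 0 lower, against 6.74%. They were CD63, SCARB2, NPC2, CTSA, GRN, TPP1, MAN2B1 and MANBA. By pool, the median change of the 33 genes at pH 6.0 was -0.33 in monosomes (10 above 0), 0.31 in oligosomes and 0.44 in polysomes. At pH 7.4 it was 0.26 in monosomes, 0.29 in oligosomes and 0.72 in polysomes. Polysomes have the largest weight in the aggregate level and are also the numerator of TE. Under the authors' scaling to RNA amounts the median of all loci itself shifted to -0.35 and that of the 33 genes to 0.14, and calls over all loci were 1.49% higher and 3.06% lower.

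GRN (chr17:44345086-44353102, plus strand, GENCODE v29, GRCh38) encodes progranulin, a secreted and lysosomal protein cut there into granulins, and had the largest mean change in steady-state mRNA. In polysomes GRN had 150 FPKM in hypoxia pH 6.0, 191 in hypoxia pH 7.4, 70.9 in normoxia pH 6.0 and 60.2 in normoxia pH 7.4. In monosomes it had 36.6 FPKM in hypoxia pH 6.0, 51.1 in hypoxia pH 7.4, 37.4 in normoxia pH 6.0 and 22.5 in normoxia pH 7.4. In oligosomes it had 37.9 FPKM in hypoxia pH 6.0, 55.9 in hypoxia pH 7.4, 38.9 in normoxia pH 6.0 and 29.5 in normoxia pH 7.4. Both hypoxia polysome libraries stood above both normoxia ones, while in the other 2 pools the hypoxia pH 6.0 values were close to those of normoxia pH 6.0. The change was 0.78 at pH 6.0 and 1.48 at pH 7.4.

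TPP1 (chr11:6612763-6619485, minus strand), a protease that removes tripeptides from protein ends, had 54.4 polysome FPKM in hypoxia pH 6.0, 68.0 in hypoxia pH 7.4, 23.3 in normoxia pH 6.0 and 21.5 in normoxia pH 7.4. Its monosome FPKM was 45.9 in hypoxia pH 6.0, 37.3 in hypoxia pH 7.4, 48.8 in normoxia pH 6.0 and 29.9 in normoxia pH 7.4. Its oligosome FPKM was 37.8 in hypoxia pH 6.0, 39.6 in hypoxia pH 7.4, 23.2 in normoxia pH 6.0 and 20.8 in normoxia pH 7.4. The hypoxia values did not overlap the normoxia ones in polysomes or oligosomes, and did in monosomes. The aggregate level was 48.8 FPKM in hypoxia pH 6.0, 52.7 in hypoxia pH 7.4, 25.7 in normoxia pH 6.0 and 22.4 in normoxia pH 7.4, a change of 0.79 at pH 6.0 and 1.26 at pH 7.4.

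NPC2 (chr14:74476192-74494177, minus strand), a soluble protein that hands cholesterol to NPC1, changed by 1.17 at pH 6.0, past 2-fold, and by 0.98 at pH 7.4, just under it. Its aggregate level was 575 FPKM in hypoxia pH 6.0, 410 in hypoxia pH 7.4, 237 in normoxia pH 6.0 and 218 in normoxia pH 7.4. Both hypoxia levels exceeded both normoxia levels. The shared MANBA locus, which holds β-mannosidase and the pseudogene LRRC37A15P, changed by 1.12 at pH 6.0 and 0.98 at pH 7.4, with 17.3 aggregate FPKM in hypoxia pH 6.0, 8.90 in hypoxia pH 7.4, 6.82 in normoxia pH 6.0 and 4.24 in normoxia pH 7.4. PSAP did not pass 2-fold at pH 6.0 (0.54) and did at pH 7.4 (1.29). At the other end stood SGSH, the sulfamidase of heparan sulfate breakdown, with 1.65 aggregate FPKM in hypoxia pH 6.0, 1.04 in hypoxia pH 7.4, 2.62 in normoxia pH 6.0 and 3.41 in normoxia pH 7.4. Both hypoxia levels lay below both normoxia levels. Its change was -0.56 at pH 6.0 and -1.05 at pH 7.4, followed by ARSB (mean -0.31), an arylsulfatase, and PPT1 (mean -0.23), which removes palmitate from proteins. In the pH 7.4 pair by itself, without the hypoxia pH 6.0 libraries, 3 genes passed 2-fold higher (PSAP, GRN and TPP1, against 5.59% of all loci) and 1 lower (SGSH, against 5.04%).

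**Figure D2:**
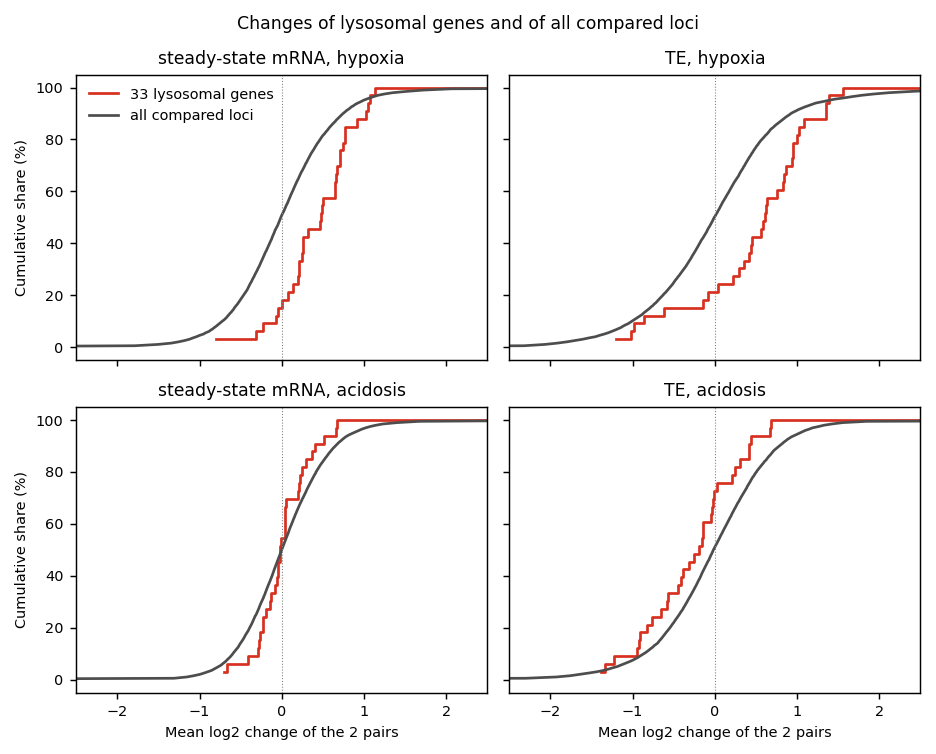
Cumulative share of the 33 genes (red) and of all compared loci (grey) against the mean log2 change of the 2 pairs, for steady-state mRNA (left) and TE (right), with hypoxia (top) and acidosis (bottom). With hypoxia the red curves lie to the right of the grey ones (medians 0.48 and 0.61, relative to the median locus; under the authors' RNA scaling the TE median is -0.01), and with acidosis the TE curve lies to the left (median -0.20, or -0.03 under that scaling).

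With hypoxia 9 of 33 genes (27.3%) rose in TE (MCOLN1, LGMN, HEXA, GLB1, GUSB, PSAP, GRN, TPP1 and ARSA), against 8.77% of all loci, and 2 (6.06%) fell (NPC2 and SGSH), against 10.1%. The median TE change was 0.61 (0.79 at pH 6.0 and 0.48 at pH 7.4), with 26 of 33 above 0, but under the authors' RNA scaling the median was -0.01, beside a median of -0.56 over all loci. Under that scaling 3 genes rose (GUSB, PSAP and ARSA) and 5 fell (NPC2, ASAH1, ARSB, SGSH and MAN2B1), and over all loci 3.65% rose and 27.1% fell. With polysome over oligosome FPKM as the ratio, MCOLN1, PSAP and GRN alone were called higher, against 3.45% of all loci, and 0 lower, against 4.40%, and the median of the 33 genes was 0.22. Both pairs were above 0 for 22 genes and below 0 for 6, against 30.5% of all loci each way. In the pH 7.4 pair by itself 13 genes passed 1.5-fold higher, against 19.5% of all loci, and 4 lower, against 21.4%. Of the 9 genes that rose, GUSB, PSAP, GRN, TPP1, ARSA and LGMN had a locus of their own. All 6 proteases that passed the filter had a TE change above 0 in both pairs, of which TPP1 and LGMN were called.

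PSAP (chr10:71816298-71851375, minus strand) encodes prosaposin, the precursor of the saposins that help enzymes reach sphingolipids, and rose most in TE. In polysomes PSAP had 328 FPKM in hypoxia pH 6.0, 442 in hypoxia pH 7.4, 166 in normoxia pH 6.0 and 148 in normoxia pH 7.4. In monosomes it had 118 FPKM in hypoxia pH 6.0, 98.3 in hypoxia pH 7.4, 189 in normoxia pH 6.0 and 83.0 in normoxia pH 7.4. In oligosomes it had 116 FPKM in hypoxia pH 6.0, 121 in hypoxia pH 7.4, 124 in normoxia pH 6.0 and 79.8 in normoxia pH 7.4. The polysome values of both hypoxia libraries exceeded those of both normoxia libraries, and the highest monosome value was that of normoxia pH 6.0. The TE ratio was 2.76 in hypoxia pH 6.0, 4.46 in hypoxia pH 7.4, 0.877 in normoxia pH 6.0 and 1.77 in normoxia pH 7.4, a mean change of 1.56, or 2.94-fold.

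Among the glycosidases, GUSB (β-glucuronidase) had a TE ratio of 1.46 in hypoxia pH 6.0, 1.08 in hypoxia pH 7.4, 0.578 in normoxia pH 6.0 and 0.457 in normoxia pH 7.4. Its polysome FPKM was 15.5 in hypoxia pH 6.0, 15.8 in hypoxia pH 7.4, 8.80 in normoxia pH 6.0 and 8.56 in normoxia pH 7.4. In monosomes GUSB had 10.3 FPKM in hypoxia pH 6.0, 14.5 in hypoxia pH 7.4, 15.9 in normoxia pH 6.0 and 19.9 in normoxia pH 7.4. The hypoxia values were higher in polysomes and lower in monosomes, without overlap. The TE change was 1.35. GUSB has 10 annotated pseudogenes, and how reads were split among such copies is not given in the sources used here, so its level is uncertain. HEXA, a subunit of β-hexosaminidase in a locus with PARP6 and CELF6, rose in TE by 0.84, and the GLB1 locus (β-galactosidase, shared with TMPPE) by 0.94. GAA, the glycogen-degrading α-glucosidase, changed by 1.32 at pH 6.0 and -0.08 at pH 7.4, and FUCA1, an α-fucosidase, by 0.21 at pH 6.0 and 0.24 at pH 7.4.

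Of the 4 sulfatases, ARSA, which acts on sulfatide, rose in TE and SGSH fell. ARSA had 4.6 polysome FPKM in hypoxia pH 6.0, 6.70 in hypoxia pH 7.4, 2.37 in normoxia pH 6.0 and 2.33 in normoxia pH 7.4. In monosomes ARSA had 1.07 FPKM in hypoxia pH 6.0, 3.76 in hypoxia pH 7.4, 3.47 in normoxia pH 6.0 and 2.58 in normoxia pH 7.4. The TE change was 1.88 at pH 6.0 and 0.89 at pH 7.4, and at such low levels the pseudocount of 1 understates it. SGSH had 1.5 polysome FPKM in hypoxia pH 6.0, 1.22 in hypoxia pH 7.4, 3.57 in normoxia pH 6.0 and 4.55 in normoxia pH 7.4, with both hypoxia values below both normoxia values. Its monosome FPKM was 2.33 in hypoxia pH 6.0, 1.80 in hypoxia pH 7.4, 2.86 in normoxia pH 6.0 and 2.09 in normoxia pH 7.4. Its TE fell by 0.86. ARSB had a TE change of -0.14 at pH 6.0 and -1.09 at pH 7.4, and the shared IDS locus, iduronate sulfatase, one of 1.78 at pH 6.0 and 0.22 at pH 7.4.

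Of the proteases, TPP1 rose in TE by 1.35, with ratios of 1.18 in hypoxia pH 6.0, 1.80 in hypoxia pH 7.4, 0.487 in normoxia pH 6.0 and 0.730 in normoxia pH 7.4. In both hypoxia conditions the ratio of TPP1 was above 1, and in both normoxia conditions below it. LGMN (chr14:92703807-92748702, minus strand), the asparaginyl protease legumain, rose by 0.95, with 6.62 polysome FPKM in hypoxia pH 6.0, 7.95 in hypoxia pH 7.4, 6.30 in normoxia pH 6.0 and 3.95 in normoxia pH 7.4, where the hypoxia pH 6.0 and normoxia pH 6.0 values lay close together. Cathepsin B (CTSB), a cysteine protease and the most abundant protease here, had 488 polysome FPKM in hypoxia pH 6.0, 537 in hypoxia pH 7.4, 330 in normoxia pH 6.0 and 289 in normoxia pH 7.4. Its monosome FPKM was 73.5 in hypoxia pH 6.0, 93.9 in hypoxia pH 7.4, 112 in normoxia pH 6.0 and 65.6 in normoxia pH 7.4. The TE change was 1.19 at pH 6.0 and 0.48 at pH 7.4, past 1.5-fold at pH 6.0. CTSL changed in TE by 0.85 at pH 6.0 and 0.04 at pH 7.4, and the shared CTSD locus (cathepsin D, an aspartic protease, with IFITM10) by 1.49 at pH 6.0 and 0.56 at pH 7.4. GRN rose in TE by 0.86, with ratios of 4.01 in hypoxia pH 6.0, 3.68 in hypoxia pH 7.4, 1.87 in normoxia pH 6.0 and 2.60 in normoxia pH 7.4.

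All 7 membrane proteins had a mean TE change with hypoxia above 0, between 0.04 and 1.09. The MCOLN1 locus, which holds the calcium channel TRPML1 and PNPLA6, rose, with TE ratios of 2.21 in hypoxia pH 6.0, 1.84 in hypoxia pH 7.4, 0.877 in normoxia pH 6.0 and 1.12 in normoxia pH 7.4. LAMP1 and LAMP2, the abundant glycoproteins of the lysosomal membrane, were not called with hypoxia. LAMP1 changed in TE by 1.07 at pH 6.0 and 0.45 at pH 7.4, and LAMP2 by -0.18 at pH 6.0 and 1.08 at pH 7.4. CD63 changed by -0.35 at pH 6.0 and 0.43 at pH 7.4.

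NPC2 was one of the 2 genes that fell in TE with hypoxia. Its monosome FPKM was 1497 in hypoxia pH 6.0, 697 in hypoxia pH 7.4, 472 in normoxia pH 6.0 and 228 in normoxia pH 7.4. Its oligosome FPKM was 407 in hypoxia pH 6.0, 321 in hypoxia pH 7.4, 213 in normoxia pH 6.0 and 156 in normoxia pH 7.4. Its polysome FPKM was 309 in hypoxia pH 6.0, 380 in hypoxia pH 7.4, 211 in normoxia pH 6.0 and 257 in normoxia pH 7.4. In each pool both hypoxia values exceeded both normoxia values, by the most in monosomes. The TE ratio was 0.207 in hypoxia pH 6.0, 0.546 in hypoxia pH 7.4, 0.448 in normoxia pH 6.0 and 1.13 in normoxia pH 7.4, with a TE change of -1.08 at pH 6.0 and -0.95 at pH 7.4. The acid ceramidase ASAH1 changed by -1.42 at pH 6.0 and by -0.54 at pH 7.4, short of the threshold. The MAN2B1 locus changed by -0.46 at pH 6.0 and -1.93 at pH 7.4. It names lysosomal α-mannosidase and WDR83OS together with 3 transcripts with clone names, which cannot be told apart here.

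**Figure D3:**
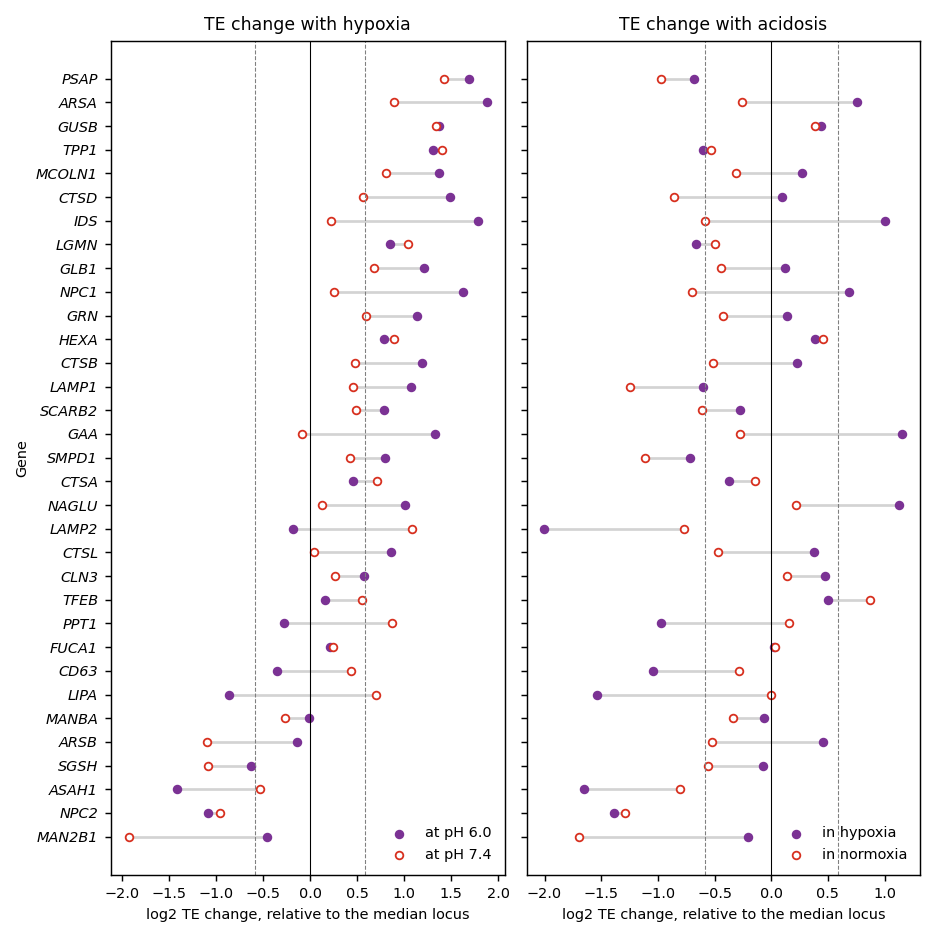
TE change of each gene relative to the median locus, with hypoxia (left; at pH 6.0 filled, at pH 7.4 open) and with acidosis (right; in hypoxia filled, in normoxia open), with dashed lines at 1.5-fold. PSAP, GUSB and TPP1 lie beyond the right line in both pairs with hypoxia, with changes of 1.31 or more, and LAMP2, NPC2 and ASAH1 beyond the left line in both pairs with acidosis; under the authors' RNA scaling the hypoxia change of TPP1 averaged 0.76 and was not called.

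Over all loci the TE change with hypoxia moved with coding length, which is a property the choice of genes did not use. Among 7295 loci naming a single gene with an annotated coding sequence, the median TE change was -0.63 below 600 nt, -0.32 from 600 to 1000 nt, -0.07 from 1000 to 1500 nt, 0.22 from 1500 to 2500 nt and 0.43 from 2500 nt. The 36 lysosomal genes had coding lengths of 603 nt (NPC2) to 3834 nt (NPC1), with a median of 1482 nt. The 10 genes of 1000 to 1500 nt that had a locus of their own had a median of 0.52 and the 8 of 1500 to 2500 nt one of 1.11, both above the median of all loci of that length. In the longer of these bands 5 of 8 genes rose (GUSB, PSAP, GRN, TPP1 and ARSA), against 9.06% of all loci, and in the shorter 1 of 10 (LGMN), against 3.78%. NPC2, the gene with the shortest coding sequence, fell. The part of coding length in the result was not tested.

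**Figure D4:**
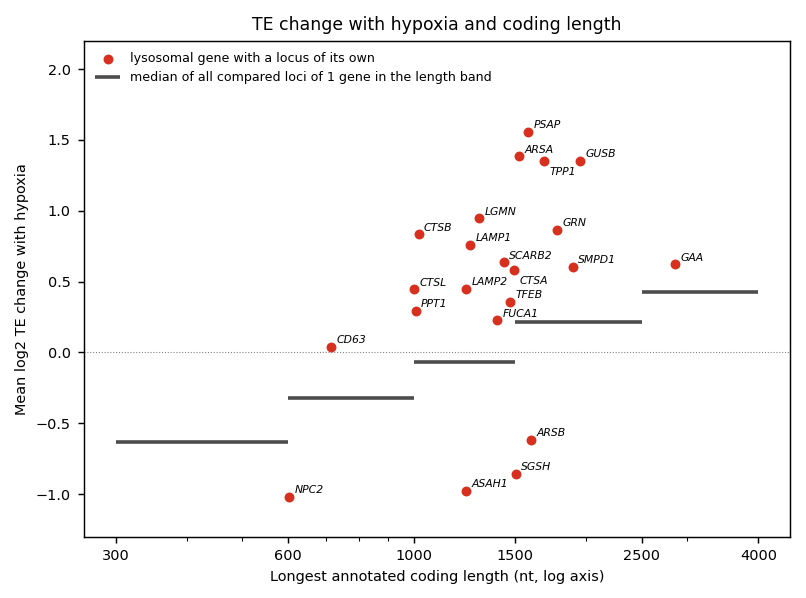
Mean log2 TE change with hypoxia (relative to the median locus) against the longest annotated coding length (log axis) for the 22 genes in a locus of their own (points), with the median of all compared loci of 1 gene in each length band (bars). Of the 22 points 18 lie above the bar of their band; NPC2, ASAH1, SGSH and ARSB lie below.

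With acidosis the steady-state levels of the lysosomal mRNAs changed about as much as the median locus. Called counts were 0 of 33 higher, against 1.22% of all loci, and 0 lower, against 0.238%, and under the authors' RNA scaling those shares were 1.59% and 0.664%. The median change was -0.02 (-0.07 in hypoxia and 0.11 in normoxia), with 10 genes above 0 in both pairs and 10 below, against 32.8% of all loci each way. In the normoxia pair by itself 0 genes passed 2-fold higher, against 3.81%, and 0 lower, against 2.36%. At 1.5-fold in both pairs with no rule on pools 2 passed higher (GAA and MANBA), against 5.5%, and 1 lower (CLN3), against 3.35%. The largest mean changes upward in loci of their own were those of GAA (0.66), FUCA1 (0.40) and ASAH1 (0.37). The largest downward were those of SMPD1 (-0.67), the acid sphingomyelinase, CTSL (-0.41) and LAMP1 (-0.28). GAA had 4.08 aggregate FPKM in hypoxia pH 6.0 against 1.96 in hypoxia pH 7.4, and 3.03 in normoxia pH 6.0 against 1.56 in normoxia pH 7.4.

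In TE 6 of 33 genes (18.2%) fell with acidosis (LAMP1, LAMP2, NPC2, PSAP, ASAH1 and SMPD1), against 6.68% of all loci, and 0 rose, against 5.73%; under the authors' RNA scaling LAMP1, NPC2 and SMPD1 fell and NAGLU rose, and the shares of all loci were 4.77% lower and 12.1% higher. With polysome over oligosome as the ratio NPC2 alone was called lower, against 5.33% of all loci, so that the other 5 calls and the higher share than over all loci were not found. The median TE change was -0.20 (0.02 in hypoxia and -0.47 in normoxia), with 9 of 33 above 0. It was -0.03 under the authors' RNA scaling and -0.36 over the 22 genes in a locus of their own. Both pairs were above 0 for 6 genes and below 0 for 14, against 28.1% of all loci each way. Upward, TFEB (0.69), GAA (0.44) and GUSB (0.41) had the largest mean changes in loci of their own, and none was called. GAA changed by 1.16 in hypoxia and -0.28 in normoxia, and GUSB by 0.44 in hypoxia and 0.39 in normoxia. All 6 genes that fell have a locus of their own. The 4 soluble ones handle sphingolipids or cholesterol, a trait read from the called genes themselves. Of the 6 lipid enzymes and lipid-binding proteins, which include also PPT1 and LIPA, the median was -0.87, beside -0.02 over all loci. ARSA (0.25), which acts on sulfatide, and the NPC1 locus (-0.01), a cholesterol transporter, were grouped elsewhere and not called. The lower TE was therefore not found for every gene with such a role. Of the 8 glycosidases, among them the shared HEXA (0.42) and GLB1 (-0.16) loci, none was called, and their median was 0.22. Without the hypoxia pH 6.0 libraries, in the normoxia pair alone, 10 genes (30.3%) passed 1.5-fold lower, against 16.8% of all loci. In that pair 1 passed higher (TFEB), against 15.5%. In the hypoxia pair alone 11 (33.3%) passed lower, against 28.3% of all loci, a share near that of all loci. There 5 (15.2%) passed higher (NPC1, GAA, ARSA, IDS and NAGLU), against 27%.

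LAMP2 (chrX:120427827-120469365, minus strand) had 45.6 monosome FPKM in hypoxia pH 6.0 against 21.7 in hypoxia pH 7.4, and 30.6 in normoxia pH 6.0 against 18.9 in normoxia pH 7.4. Its polysome FPKM was 27.3 in hypoxia pH 6.0 against 54.7 in hypoxia pH 7.4, and 21.2 in normoxia pH 6.0 against 23.7 in normoxia pH 7.4. Its oligosome FPKM was 19.7 in hypoxia pH 6.0 against 17.8 in hypoxia pH 7.4, and 12.6 in normoxia pH 6.0 against 12.3 in normoxia pH 7.4. The monosome value was higher and the polysome value lower at pH 6.0 in both pairs, with a TE change of -2.0 in hypoxia and -0.77 in normoxia, a mean of 2.61-fold lower.

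LAMP1 (chr13:113297241-113323672, plus strand) had a TE ratio of 2.05 in hypoxia pH 6.0 against 3.12 in hypoxia pH 7.4, and 0.995 in normoxia pH 6.0 against 2.44 in normoxia pH 7.4. Its polysome FPKM was 42.1 in hypoxia pH 6.0 against 64.1 in hypoxia pH 7.4, and 29.4 in normoxia pH 6.0 against 38.6 in normoxia pH 7.4. In monosomes it had 20.1 FPKM in hypoxia pH 6.0 against 19.9 in hypoxia pH 7.4, and 29.5 in normoxia pH 6.0 against 15.2 in normoxia pH 7.4, so that the higher monosome value at pH 6.0 was seen in normoxia. The TE change was -0.60 in hypoxia and -1.25 in normoxia.

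ASAH1 had 94.3 monosome FPKM in hypoxia pH 6.0 against 26.3 in hypoxia pH 7.4, and 32.5 in normoxia pH 6.0 against 19.5 in normoxia pH 7.4. Its polysome FPKM was 43.3 in hypoxia pH 6.0 against 39.3 in hypoxia pH 7.4, and 41.6 in normoxia pH 6.0 against 45.8 in normoxia pH 7.4. Its oligosome FPKM was 43.1 in hypoxia pH 6.0 against 21.9 in hypoxia pH 7.4, and 30.2 in normoxia pH 6.0 against 22 in normoxia pH 7.4. The monosome values differed more than the polysome values in both pairs, with a TE change of -1.66 in hypoxia and -0.80 in normoxia. NPC2 fell in TE by 1.34 on average, with 1497 monosome FPKM in hypoxia pH 6.0 against 697 in hypoxia pH 7.4, and 472 in normoxia pH 6.0 against 228 in normoxia pH 7.4.

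SMPD1 (chr11:6390431-6394998, plus strand) had 36.6 polysome FPKM in hypoxia pH 6.0 against 105 in hypoxia pH 7.4, and 52 in normoxia pH 6.0 against 56 in normoxia pH 7.4. Its monosome FPKM was 13.8 in hypoxia pH 6.0 against 24.0 in hypoxia pH 7.4, and 34.2 in normoxia pH 6.0 against 15.9 in normoxia pH 7.4. The polysome value was lower at pH 6.0 in both pairs and the monosome value in the hypoxia pair alone. The TE change was -0.71 in hypoxia and -1.12 in normoxia. PSAP fell in TE by 0.82, with ratios of 2.76 in hypoxia pH 6.0 against 4.46 in hypoxia pH 7.4 and 0.877 in normoxia pH 6.0 against 1.77 in normoxia pH 7.4.

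**Figure D5:**
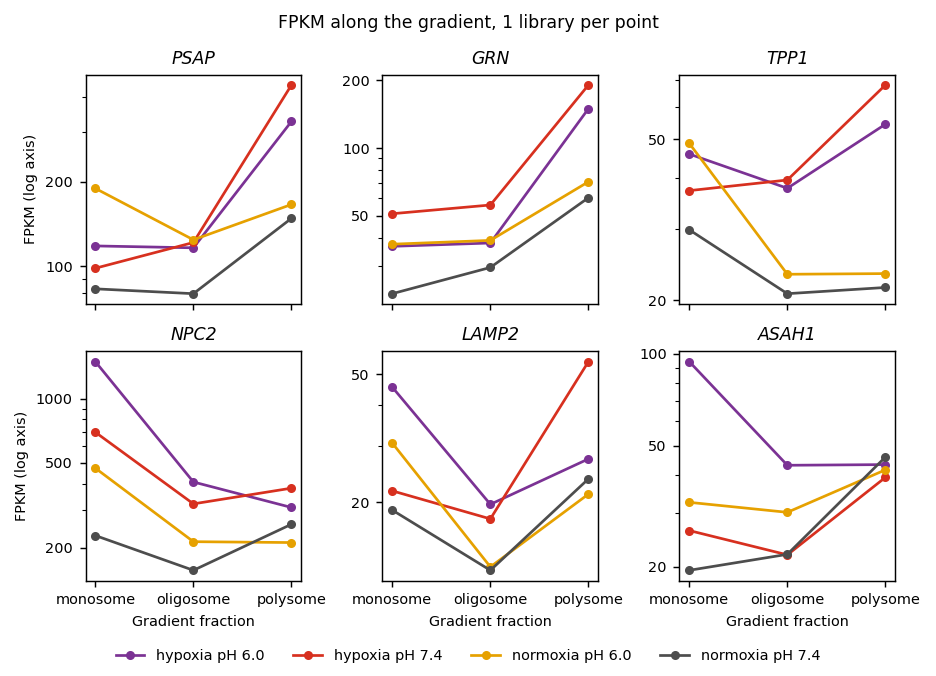
FPKM (log axis) of 6 genes in the monosome, oligosome and polysome libraries, 1 line per condition and 1 library per point. PSAP, GRN and TPP1 end highest in polysomes in both hypoxia conditions, and NPC2, LAMP2 and ASAH1 start highest in monosomes in hypoxia pH 6.0.

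Hypoxia with acidosis, read against normoxia pH 7.4 in a single pair, gave 5 genes (15.2%) higher in steady-state mRNA (NPC2, GRN, TPP1, MAN2B1 and MANBA), against 11.9% of all loci, and 0 lower, against 12.5%. The median was 0.51, with 24 of 33 above 0, and 0.18 under the authors' RNA scaling, beside -0.36 over all loci. At 1.5-fold with no rule on pools 14 passed higher, against 26.5% of all loci, and 1 lower (SGSH), against 25.8%. Under the authors' RNA scaling MANBA alone was called, and the shares of all loci were 8.2% higher and 20.97% lower. NPC2 rose by 1.31, or 2.48-fold, GRN by 1.08 and TPP1 by 1.00, which is at the threshold. In monosomes the change was 2.60 for NPC2, 2.43 for MAN2B1 and 2.08 for MANBA, and in polysomes 0.25, 0.28 and 1.74. GRN changed by 0.57 and TPP1 by 0.50 in monosomes, and by 1.29 and 1.28 in polysomes. The largest negative values in loci of their own were those of SGSH (-0.82), SMPD1 (-0.53) and PPT1 (-0.43), none of them called.

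In TE 16 of 33 genes (48.5%) rose in hypoxia pH 6.0 relative to normoxia pH 7.4, against 27.8% of all loci, and 8 (24.2%) fell, against 29.8%. Under the authors' RNA scaling 8 rose, and the shares of all loci were 19.96% higher and 44.2% lower; the median of the 33 genes was 0.36, or -0.03 under that scaling. With polysome over oligosome as the ratio 5 rose (MCOLN1, GAA, PSAP, GRN and NAGLU), a smaller share than the 21.99% of all loci, 8 fell, against 23.6%, and the median was 0.09. The largest rises in loci of their own were those of GUSB (1.73), ARSA (1.59) and GAA (1.02). GAA had 3.78 polysome FPKM in hypoxia pH 6.0, against 0.680 in normoxia pH 7.4, and 5.58 monosome FPKM in hypoxia pH 6.0, against 3.53 in normoxia pH 7.4. CTSB (0.65) and CTSD (0.60) rose too, but with the oligosome ratio the change was -0.10 for CTSB and -0.22 for CTSD. The other genes that rose were MCOLN1, NPC1, HEXA, GLB1, PSAP, GRN, TPP1, CLN3, IDS, NAGLU and TFEB, by 0.68 to 1.22. Of those that fell, NPC2 (-2.40), ASAH1 (-2.25), the MAN2B1 locus (-2.19) and SGSH (-1.21) changed most. LAMP2, CD63, LIPA and ARSB fell by 0.66 to 0.97.

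TFEB (chr6:41683978-41736259, minus strand), the transcription factor of the CLEAR element, was measured at a low level. Its aggregate FPKM was 2.5 in hypoxia pH 6.0, 2.08 in hypoxia pH 7.4, 2.65 in normoxia pH 6.0 and 1.84 in normoxia pH 7.4. Its steady-state change was 0.01 with hypoxia and 0.21 with acidosis. The TE change was 0.36 with hypoxia and 0.69 with acidosis, which did not pass 1.5-fold in hypoxia (0.50) and did in normoxia (0.87). Of its relatives TFE3, MITF and TFEC had a mean FPKM under 1 and did not pass the filter. Of the 5 genes whose promoters hold TCACGTGA, CTSA changed in steady-state mRNA by 0.77 with hypoxia and 0.04 with acidosis, and GAA by 0.25 with hypoxia and 0.66 with acidosis. LAMP1 changed by 0.49 with hypoxia and -0.28 with acidosis, MCOLN1 by 0.70 with hypoxia and -0.03 with acidosis, and CLN3 by 0.21 with hypoxia and -0.70 with acidosis, with no call among them.

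CTSZ, GLA and NEU1 did not pass the filter. CTSZ, a carboxypeptidase, was listed at 0.388 FPKM in the hypoxia pH 6.0 monosome library, 0.103 in the hypoxia pH 7.4 oligosome library, 0.0390 in the hypoxia pH 7.4 polysome library and at 0 in the other libraries. GLA, the α-galactosidase, was listed at 0.0120 FPKM in the normoxia pH 7.4 monosome library alone. NEU1, a sialidase, was listed at 0.0416 FPKM in the normoxia pH 6.0 oligosome library and 0.0203 in the normoxia pH 7.4 oligosome library. NEU1 was named by 8 loci and GLA by 2, and the values are those of the locus of highest mean FPKM. How reads were split among these loci is not given in the sources used here. Such enzymes are used by nearly every cell, and a value listed at 0 in a table of estimated FPKM may be a failed estimate, so no change is given for them.

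Genes of the same organelle outside the 36 were read in the same way. Of 29 other lysosomal enzymes and cofactors 22 passed the filter, with a median steady-state change with hypoxia of 0.46 (20 of 22 above 0) and no call. Among those that rose in TE with hypoxia were DNASE2, MAN2B2 and SCPEP1, and AGA fell, with a median of 0.46. With acidosis AGA and SCPEP1 were among those that fell in TE and none rose, with a median of -0.32. Of 25 other membrane proteins 21 passed, with a median of -0.02 in steady-state mRNA and 0.08 in TE with hypoxia. Among these LMBRD1, which takes part in cobalamin export, rose in mRNA with hypoxia, and CLCN7, a chloride transporter gene in a shared locus, fell in mRNA and LAPTM4B in TE with acidosis. The 7 membrane proteins among the 36 had a median of 0.64 in steady-state mRNA with hypoxia (6 of 7 above 0), and differences between these lists were not tested.

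Of 15 genes for the delivery of enzymes to lysosomes 14 passed, with a median steady-state change with hypoxia of 0.05 and no call. GNPTG, a subunit of the enzyme that makes the mannose 6-phosphate tag, and the adaptor subunit genes AP1B1 and AP3B1 rose in TE with hypoxia, and IGF2R, a mannose 6-phosphate receptor, fell, with a median of 0.38. AP1B1, AP3B1 and IGF2R lie in shared loci. Of 15 genes of the TFEB family and of nutrient sensing at the lysosome surface 12 passed. RRAGA, a Rag GTPase, rose in mRNA with hypoxia by 1.54. LAMTOR1 (0.95) and LAMTOR5 (1.71), subunits of the Ragulator complex that anchors the Rag GTPases, rose in TE with acidosis, and LAMTOR2 fell in TE with hypoxia by 0.78.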

How the data were processed

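The authors deposited FPKM values for each assembled locus in the 12 libraries, 1 per condition and gradient pool. The library kit kept strand and selected mRNA, per the labels' protocols. Among the tools that the submitters' processing notes list are STAR (2.5.0), Cufflinks (2.2.1), Cuffnorm and bcl2fastq, with GRCh38 as the build. For the role of each tool, the annotation and the scaling within Cuffnorm no source was at hand (not given in the sources used here). A further signal that the authors deposited is, per the file headers, FPKM scaled to RNA concentration, and from it 1 factor per library (1 to 5.37, equal on all lines above 1 FPKM within 1e-06) was recovered. FPKM holds no counts, so count models and intervals were not used. If it was divided by the library total, abundant transcripts in 1 library lower the values of its other loci.

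Aggregate FPKM weighted the pools by these factors. A pseudocount of 1 was added before log2, which understates changes of low loci. The filter kept a mean FPKM of 1 or more and removed 4790 small RNA loci. Changes were centred on the median locus. Calls used 2-fold (steady-state mRNA) and 1.5-fold (TE) thresholds in every pair. The calculation was tested on simulated data. The 36 genes, the other lists and the thresholds were chosen with earlier results of these data known. Named with values were all called genes, the 3 genes that changed most in each direction, per effect and measure, among genes in a locus of their own, the 5 genes of highest FPKM, TFEB and genes below the filter; of other lists, called genes. SCARB2 and CTSA, and of the other lists CTSC, CTSF, CTSK and CTSS, are named outside this rule. Coding lengths and gene bounds are from GENCODE v29 (basic set for coding lengths), promoters from RefSeq. Alternatives changed the pseudocount, filter, scaling, weighting, thresholds and TE denominator, or left out the monosome pool, shared loci or the hypoxia pH 6.0 libraries. Python 3.11.15, numpy 2.4.6, pandas 2.3.3 and matplotlib 3.10.9 were used.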

Additional observations from a re-analysis of the deposited data

Results flagged for a closer look

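Several genes moved in opposite directions in the 2 pairs of conditions of the same factor. For steady-state mRNA they were picked out because all 3 pools of a gene went one way in 1 pair and the other way in the other pair, and for TE because both pairs passed 1.5-fold in opposite directions. With 1 library per condition and pool these differences between pairs were not tested. Each value below is the difference between the log2 changes of the 2 pairs. For a given gene and measure it is the same quantity for acidosis and for hypoxia, apart from the medians subtracted. The NPC1 locus, listed under both in steady-state mRNA, is therefore not a separate result in each.

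For acidosis, the change in hypoxia minus that in normoxia was -0.59 for the MCOLN1 locus in steady-state mRNA (-0.32 in hypoxia and 0.27 in normoxia), -0.83 for the NPC1 locus (-0.46 in hypoxia and 0.38 in normoxia), -0.32 for CTSB (-0.13 in hypoxia and 0.20 in normoxia), -0.71 for GRN (-0.39 in hypoxia and 0.31 in normoxia) and -0.57 for ARSA (-0.52 in hypoxia and 0.06 in normoxia). All 5 were higher at pH 6.0 in normoxia and lower at pH 6.0 in hypoxia. In TE the NPC1 locus, which holds a membrane transporter of cholesterol and a small Y RNA, went the other way, with a difference of 1.39 (0.69 in hypoxia and -0.70 in normoxia).

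For hypoxia, the change at pH 6.0 minus that at pH 7.4 was -0.82 for the NPC1 locus in steady-state mRNA (-0.46 at pH 6.0 and 0.37 at pH 7.4), -0.45 for CTSL (-0.01 at pH 6.0 and 0.44 at pH 7.4) and -1.28 for SMPD1 (-0.50 at pH 6.0 and 0.78 at pH 7.4). In TE it was -1.56 for the LIPA locus, which holds lysosomal acid lipase (-0.86 at pH 6.0 and 0.70 at pH 7.4). Each of these differences rests on the same 4 conditions as the others. The hypoxia pH 6.0 monosome library, which has the lowest depth, enters all of them.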

How the results depend on the processing

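No paired analysis was possible because each condition and pool has 1 library and the labels give no replicate numbers. For the same reason no replicate could be left out. Counts of called genes are given here as higher and lower. With the authors' RNA scaling, hypoxia with acidosis gave 1 higher in steady-state mRNA (5 in the main calculation) and 8 higher in TE (16). The same scaling gave 1 higher and 3 lower in TE with acidosis (0 and 6), and 3 higher and 5 lower in TE with hypoxia (9 and 2). A pseudocount of 0.1 added 1 gene higher in mRNA with hypoxia (MANBA), against 3.26% of all loci. It also added 1 higher in TE with acidosis (TFEB), against 8.36%. Polysome over oligosome gave 1 lower in TE with acidosis (against 5.33% of all loci), 3 higher and 0 lower with hypoxia (3.45% and 4.40%) and 5 higher with both (21.99%), so that the share of genes was below that of all loci for acidosis and for both, and turned CTSB (-0.099) and CTSD (-0.22) in TE with both. A 2-fold threshold for TE gave fewer calls by construction. It gave 1 lower with acidosis, against 2.56% of all loci. With hypoxia it gave 3 higher, against 3.91%, and 0 lower, against 4.09%. With both it gave 8 higher, against 16.2%, and 4 lower, against 19.8%. Unweighted pools gave 2 higher in mRNA with hypoxia, against 2.26% of all loci, and 3 with both, against 12.7%. A 1.5-fold mRNA threshold with no rule on pools gave 2 higher and 1 lower with acidosis, 8 higher with hypoxia, and 14 higher and 1 lower with both, by construction. Without shared loci 3 genes were higher in mRNA and 8 in TE with both, of 22 genes. Without the hypoxia pH 6.0 libraries, a single pair each, mRNA with hypoxia gave 3 higher, against 5.59% of all loci, and 1 lower, against 5.04%. TE with acidosis then gave 1 higher, against 15.5%, and 10 lower, against 16.8%. TE with hypoxia gave 13 higher, against 19.5%, and 4 lower, against 21.4%. The last 2 alternatives were chosen after seeing the data. Where no construction is named, the cause was not tested. Every count stayed within 1.5 times its main value without the filter on low values and without the monosome pool, but single calls changed. Without the filter 2 were gained and 3 lost, and without the monosome pool 3 were gained and 2 lost.

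The depth of single libraries is known only relative to each other, and low genes (ARSA, SGSH, TFEB, IDS, FUCA1) are the least precise. Levels of genes with annotated pseudogenes (GUSB 10, CTSL 5, LGMN 1, IDS 1, FUCA1 1) and of the 11 shared loci are uncertain. Hypoxia, acidosis and their combination share libraries, so their counts do not support each other.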
